A study of Mus musculus with 5 samples.

Results

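Clusterin and 8 heat shock chaperones were followed through single cells of MMTV-PyMT tumor organoids, grown for 5 days in BME or in Collagen I. The genes were Clu, Cryab, Hspb1, Hspb8, Hspa1a, Hspa1b, Hsph1, Dnajb1 and Hspa8, which are 9 of the 18384 genes counted, and each was found by its symbol. The group was chosen with measured values of these plates in view: Clu and Cryab were selected on their unequal response to Collagen I in cells with and without basal keratins. Their levels by matrix and by keratin class are therefore described without a test. The other genes were tested in every comparison. All 9 were candidates for a test by cell cycle and immediate early genes, which the selection of Clu and Cryab did not use. The members, gene lists and class limits were chosen with earlier results of these data known. The p-values below were not corrected for that choice.

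The organoids came from mammary tumors of mice in which the MMTV promoter drives the polyoma middle T oncogene in mammary epithelium, and all groups carry that transgene. BME is a basement membrane extract in which the labels record no invasion, whereas fibrillar Collagen I is the matrix in which they record invasion. Organoids were first grown in BME, moved into fresh BME or Collagen I for the last 5 days, freed with collagenase and dispase, dissociated with trypsin and sorted as live single cells into plates of 384 wells. Here 3 plates from BME (replicates 1 to 3) and 2 from Collagen I (replicates 1 and 3) were analysed, and nothing states whether the plates of a matrix came from separate cultures, so that p-values measure the spread between plates, which may be technical. All BME plates were sequenced on one flow cell, and the Collagen I plates on a flow cell each, so that matrix and sequencing run cannot be told apart.

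A well was kept if it held over 500 counts, under 8000 genes and a mitochondrial share under 10%. That share counted only rows whose symbol starts with mt-. The filter left 944 wells in BME and 556 in Collagen I. All rows of chromosome M took 120026 to 185579 of 1000000 counts in the BME sums of either class below. In the Collagen I sums they took 66456 to 101112. The BME shares were above 10%, so that the limit did not cap the whole of chromosome M. Basal wells held at least 5 counts of Krt5, Krt14 and Krt17 per 10000, and non-basal wells held under 2. There were 302 basal and 537 non-basal wells in BME, and 226 and 277 in Collagen I. The median kept well held 21739 to 25603 counts in the BME plates and 2749 to 5106 in the Collagen I plates, so that in a shallow Collagen I well very few keratin transcripts decided the class. A list of 7 basal markers that includes the 3 keratins summed to 2874 to 3836 counts per 1000000 counts of the sum (CPM) in basal wells of BME and 3774 to 4253 CPM in those of Collagen I. In non-basal wells the same list reached 164 to 211 CPM and 297 to 368 CPM. The 7 luminal markers summed to 822 to 956 CPM in basal wells of BME but to 3091 to 3245 CPM in basal wells of Collagen I. In non-basal wells they summed to 2196 to 2560 CPM in BME and 3703 to 3976 CPM in Collagen I. Basal wells of Collagen I were thus above non-basal wells of BME in luminal markers. The part of this in the class contrasts was not tested. The epithelial genes Epcam and Cdh1 were present in every group. Of 7 fibroblast markers, the summed level in basal wells was 23.9 to 35.3 CPM in BME and 71.9 to 418 CPM in Collagen I, and in non-basal wells 27.3 to 35.4 and 117 to 339 CPM. Over all plates Pdgfra had 614 counts, Col1a1 384, Dcn 172, Col1a2 151, Col3a1 46, Lum 5 and Pdgfrb 3. Over all wells Col1a1 (log2 fold change 4.04, SE 0.22, edgeR adjusted p = 3.28e-08) and Dcn (3.23, SE 0.75, edgeR adjusted p = 0.0052) rose with Collagen I, and Pdgfra did not pass the test (0.11, SE 0.24). The immune marker Ptprc was at 0 and Cd68 had 66 counts. The part of these other markers in the results was not tested.

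Chaperones bind proteins that are unfolded or misfolded and keep them from aggregating until they refold or are degraded. Clusterin, the product of Clu, does this mainly outside the cell, as a secreted glycoprotein, and is a well-known marker of stressed and regenerating epithelium. The small heat shock proteins (Cryab, Hspb1, Hspb8) hold unfolded proteins without using ATP and also bind actin and intermediate filaments. The HSP70 proteins (inducible Hspa1a and Hspa1b, constitutive Hspa8) refold clients in cycles of ATP hydrolysis, in which the J-domain protein Dnajb1 loads the client and the HSP110 protein Hsph1 acts as nucleotide exchange factor. Heat shock factor Hsf1 induces many of these genes through heat shock elements, arrays of the unit GAA and its reverse complement TTC, each pair set apart by any pair of bases. In the mammary gland Cryab is a known marker of basal and myoepithelial cells.

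The genes lie on mouse chromosomes 5, 8, 9, 14 and 17. In GENCODE vM21 on GRCm38, the assembly also called mm10, Clu spans chr14:65968483-65981547 on the plus strand and Cryab chr9:50751325-50756636 on the plus strand. The start of Cryab overlaps Hspb2 on the minus strand, another small heat shock gene, which averaged only 2.19 CPM in the BME plates and 2.72 CPM in the Collagen I plates. Hspb1, at chr5:135887919-135889563, and Dnajb1, at chr8:83608193-83612653, lie on the plus strand, and Hsph1, at chr5:149614287-149636376, lies on the minus strand. Hspa8 spans chr9:40800984-40810087 and holds 3 small nucleolar RNA genes of the Snord14 family on its own strand. Hspa1a and Hspa1b are near-identical neighbours on chromosome 17: 52.7% of the 75-base windows of the Hspa1a transcript also occur in Hspa1b, but none of the 426 windows in the last 500 bases, where a 3′ method reads.

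RefSeq promoter windows (GRCm38.p6, 250 bases before to 50 after the start) were given for 6 of the 9 genes, Hspb1, Hspb8, Hspa1a, Hspa1b, Hsph1 and Dnajb1. They were searched for GAANNTTC and TTCNNGAA, both of which read the same on either strand and can overlap, and for the longer arrays GAANNTTCNNGAA and TTCNNGAANNTTC, which are each other's reverse complement. GAANNTTC stood in 7.86% of all 32851 windows, TTCNNGAA in 8.52% and a longer array in 0.603%. The windows of Hspb1, Hspb8, Hspa1a, Hspa1b and Hsph1 each held a match, and those of Dnajb1 held none of these letters. The matches of the genes that changed most clearly in the data, and of the inducible pair for comparison, are shown with the element in capitals. Distances are counted from the transcription start that a window was set on, not from the edge of the window, and Hsph1 has 2 windows.
Hspb1 (chr5:135887794-135887817, plus strand, 117 bases before the start): caacaagaGAAGTTTCcagatggg
Hspb1 (chr5:135887814-135887837, plus strand, 97 bases before the start): tgggggcaGAACCTTCctggcccc
Hsph1 (chr5:149636354-149636377, minus strand, 33 bases before the start of the first window): tagaatctTTCTCGAAggctcgag
Hsph1 (chr5:149636280-149636308, minus strand, longer array, 15 bases after the start of the second window): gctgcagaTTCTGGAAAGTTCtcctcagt
Hspa1b (chr17:34959327-34959350, minus strand, 104 bases before the start): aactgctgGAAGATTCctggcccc
Hspa1a (chr17:34972245-34972268, minus strand, 104 bases before the start): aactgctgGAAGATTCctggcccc
Hspa1a and Hspa1b shared the same 24 bases at the same distance from the start. A match is a stretch of letters, and binding was not measured.

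Of the basal and non-basal wells, Clu was high in those that were non-basal in BME and lower in the other groups. In wells between the classes Clu was at 553, 299 and 251 CPM in the BME plates 1, 2 and 3. In the Collagen I plates 1 and 3 Clu was at 230 and 92.3 CPM in such wells. In non-basal wells it reached 750.0, 584 and 678 CPM in the BME plates 1, 2 and 3, against 142 and 97.8 CPM in the Collagen I plates 1 and 3, a mean of 670.4 ± 83.4 (SD, n = 3) against 119.7 ± 30.9 (SD, n = 2). The BME mean was 5.60 times the Collagen I mean, and the plates of the matrices lay far apart. In basal wells the values were 156, 153 and 204 CPM in BME against 151 and 117 CPM in Collagen I, so that the lowest BME plate exceeded the highest Collagen I plate by less than the spread among plates of the same matrix. The fitted log2 fold change of Collagen I against BME was -2.45 in non-basal wells and -0.31 in basal wells, and the fitted difference between the classes was 2.09. With wells thinned to 2000 counts before the classes were made, the basal value was -1.61 and the difference 0.53. With thinned wells that kept the class of the whole well, the values were -0.77 in basal wells and -2.24 in non-basal wells, and the difference was 1.502, so that the Clu contrast was smaller in thinned wells. Because Clu was chosen for this contrast, the numbers describe it and test nothing.

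Cryab was higher in Collagen I in basal wells and lower in non-basal wells. In basal wells it was at 46.5, 98.1 and 82.4 CPM in the BME plates and at 112 and 136 CPM in the Collagen I plates, with means of 75.7 ± 26.5 (SD, n = 3) and 124 ± 17.1 (SD, n = 2). In non-basal wells the BME plates held 80.7, 60.6 and 63.4 CPM and the Collagen I plates 24.8 and 11.3 CPM. Every Collagen I plate was thus above every BME plate in basal wells and below every BME plate in non-basal wells. The fitted log2 fold changes were 0.74 and -1.81, with a fitted difference of 2.47 between the classes, again without a test. In the thinned wells the difference was 2.30, and 2.32 with the class of the whole well. The non-basal Collagen I values rest on 21 and 6 counts of Cryab, in 133 and 144 wells.

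**Figure D1:**
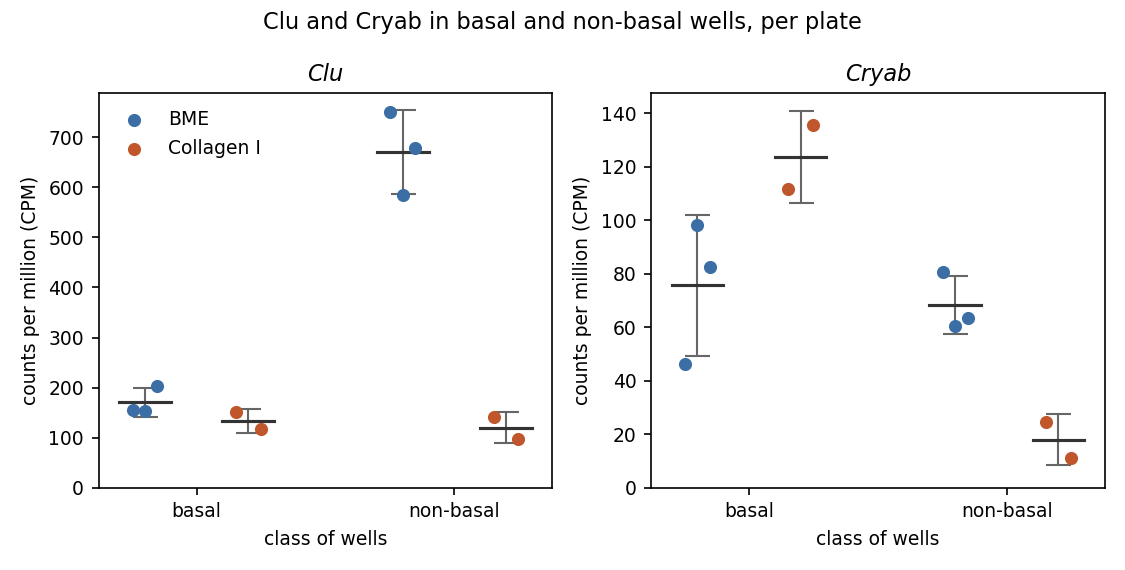
CPM of Clu and Cryab (vertical axes, from 0) in basal and non-basal wells, with 1 point per plate (blue BME, 3 plates; orange Collagen I, 2 plates), the mean as a line and the SD as bars. Clu stands at 584 to 750.0 CPM in non-basal wells of BME and at 97.8 to 204 CPM in the other groups, and Cryab is lowest in non-basal wells of Collagen I at 11.3 and 24.8 CPM.

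Read across the classes within a matrix, Clu was higher in non-basal wells of BME and Cryab was higher in basal wells of Collagen I. Basal against non-basal wells, Clu differed by -1.98 on the log2 scale in BME and by 0.11 in Collagen I. In thinned wells these values were -0.95 and -0.42, and with the class of the whole well -1.88 and -0.38, so that the direction in Collagen I turned. Cryab differed by 0.14 in BME and by 2.61 in Collagen I. Within single plates the basal to non-basal ratio of Clu ran from 0.208 to 1.20 and that of Cryab from 0.576 to 12.03.

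The share of wells with any count was compared after every well had been thinned to 2000 counts, with shallower wells left out: 45 of 302 basal and 99 of 537 non-basal wells in BME, and 76 of 226 and 61 of 277 in Collagen I. Clu was then seen in 55.2% to 63.7% of the non-basal wells of the BME plates and in 21.6% to 25.2% of those of the Collagen I plates, against 77.1% to 83.7% and 22.2% to 42.9% without thinning. In basal wells the thinned shares of Clu overlapped, at 19.6% to 36.3% in BME and 12.3% to 29.0% in Collagen I. Cryab was seen in 7.06% to 15% of thinned basal wells in BME and 16.0% to 18.8% in Collagen I. In non-basal wells its shares were 8.97% to 13.6% and 2.06% to 5.88%. The unthinned shares of Cryab went another way in basal wells, at 42.7% to 62.0% in BME and 19.6% to 28.4% in Collagen I, where the median basal well held 16930 to 26524 and 2579 to 4124 counts.

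Transcripts of both genes were spread unevenly over wells. In non-basal wells of BME plate 1, the 10% of wells with the most Clu held 39.0% of its counts, and the highest well 156 counts. In BME plate 3 a single non-basal well held 332 of 3731 Clu counts. The median non-basal BME well held 3.32 to 4.61 Clu counts per 10000, whereas the median non-basal Collagen I well held 0 in both plates. For Cryab the top 10% of non-basal BME wells held 47.3% to 50.5% of the counts. Hspa8, by contrast, had 33.8% to 35.7% of its counts in the top 10% of these wells.

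The wells were also grouped into 8 ranges of keratin content. In BME, Clu was at 700.4 CPM in the 442 wells with under 1 keratin count per 10000, at 405 CPM between 2 and 3.5, and at 136 CPM in the 78 wells with 30 or more. In Collagen I it stayed between 71.0 and 237 CPM over the same ranges, with no steady direction. Cryab in Collagen I went from 22.7 CPM in wells with under 1 keratin count per 10000 to 182 CPM in wells with 30 or more, and stayed between 60.8 and 108 CPM in BME. Around the class limit of 5, wells of BME just below it (3.5 to 5) held 294 CPM of Clu and those just above it (5 to 7.5) 304 CPM, against 208 and 71.0 CPM in Collagen I, where the last value rests on 7 counts. For Cryab the values just below and above the limit were 67.3 and 70.1 CPM in BME, and 75.8 and 50.7 CPM in Collagen I on 8 and 5 counts.

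**Figure D2:**
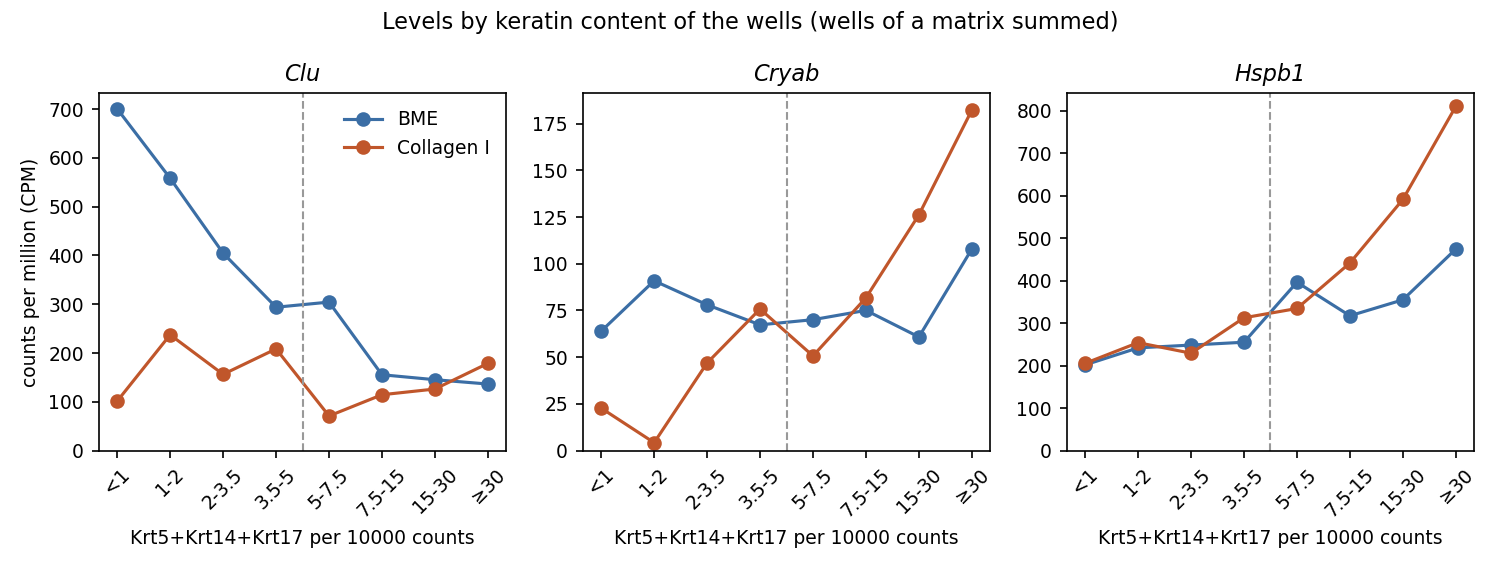
CPM of Clu, Cryab and Hspb1 (vertical axes, from 0) in wells grouped by their summed Krt5, Krt14 and Krt17 per 10000 counts (horizontal axis, 8 ranges of unequal width), with the wells of a matrix summed over its plates and the class limit of 5 as a dashed line. Clu goes from 700.4 to 136 CPM along the axis in BME and lies between 71.0 and 237 CPM in Collagen I, Cryab goes from 22.7 to 182 CPM in Collagen I, and Hspb1 is highest in the last range in both matrices.

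Hspb1, a small heat shock protein that binds actin and rises in many stresses, was the only one of the 6 tested members that rose with Collagen I in basal wells (Cryab, higher there too, was not tested). Basal wells held 454, 357 and 342 CPM in the BME plates and 488 and 703 CPM in the Collagen I plates, which do not overlap. The log2 fold change was 0.68 (SE 0.20, adjusted p = 0.0189 by edgeR's quasi-likelihood test). This call was lost in 5 of 19 alternatives, with edgeR adjusted p of up to 0.42: without BME replicate 3, without Collagen I replicate 3, among non-cycling wells and in both ways of thinning the wells to 2000 counts. Here and in what follows, a fit without a Collagen I plate leaves 1 plate of that matrix, which is assumed to vary like the BME plates, and has less power. In non-basal wells the values were 237, 196 and 192 CPM against 186 and 258 CPM, which overlap (log2 fold change 0.10, SE 0.18, adjusted p = 0.723). The difference between the effects in the classes passed the test narrowly, at 0.50 (SE 0.14, adjusted p = 0.0444), and was lost in 9 of 18 alternatives, among them the fits without BME replicate 1, Collagen I replicate 1 or Collagen I replicate 3, and wells thinned to 2000 counts with their class taken from the whole well, where it was -0.08.

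In both matrices Hspb1 was higher in basal than in non-basal wells, in 5 of 5 plates and by 1.78 to 2.73 times within a plate. The log2 difference was 0.87 (SE 0.07, edgeR adjusted p = 2.92e-11) in BME and 1.36 (SE 0.12, edgeR adjusted p = 8.93e-10) in Collagen I. It passed the threshold in all 18 alternatives in each matrix. Along the keratin scale Hspb1 went from 202 to 474 CPM in BME and from 205 to 810.2 CPM in Collagen I. Hspb8, which works with the co-chaperone Bag3 in the removal of aggregates by autophagy, was rare, at 5.32 to 14.3 CPM in the basal and non-basal wells of the 5 plates. It did not pass the test by matrix in basal wells (log2 fold change -0.38, SE 0.58, adjusted p = 0.701) or non-basal wells (-0.06, SE 0.49, adjusted p = 0.949), and the Collagen I sums held only 2 to 6 counts each.

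Against Hspb1, the HSP110 protein Hsph1 and the constitutive HSP70 protein Hspa8 fell with Collagen I in both classes. Hsph1 was at 60.0, 74.2 and 73.4 CPM in basal wells of BME and at 24.8 and 21.3 CPM in those of Collagen I. In non-basal wells it was at 108, 110.0 and 115 CPM against 36.5 and 28.2 CPM. The BME plates were above the Collagen I plates in each class, by 3.00 times on average in basal wells and 3.43 times in non-basal wells. The log2 fold changes were -1.54 (SE 0.31, edgeR adjusted p = 0.00119) and -1.73 (SE 0.21, edgeR adjusted p = 1.62e-05). The call in non-basal wells held in all 19 alternatives, and the one in basal wells was lost only among non-cycling wells (edgeR adjusted p = 0.0773). The basal Collagen I values rest on 10 and 8 counts.

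Hspa8 was at 1317, 1958 and 1889.8 CPM in basal wells of the BME plates and at 949.9 and 956 CPM in those of the Collagen I plates. Non-basal wells held 1724, 2453 and 2461 CPM in BME and 1381 and 1188 CPM in Collagen I. No BME plate was as low as a Collagen I plate of the same class, and BME plate 1 was the lowest of its matrix in both. The log2 fold change of Hspa8 was -0.81 in basal wells (SE 0.21, edgeR adjusted p = 0.00862) and -0.76 in non-basal wells (SE 0.19, edgeR adjusted p = 0.00676). Each of these calls was lost in 5 of 19 alternatives. Both fell away if either plate of Collagen I was left out, among non-cycling wells and with wells thinned to 2000 counts, and the basal call also without BME replicate 3, with edgeR adjusted p of up to 0.109 in basal wells and 0.163 in non-basal wells.

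The inducible HSP70 gene Hspa1b did not pass the test by matrix. It was at 29.8 to 39.7 CPM in basal wells of BME, 29.3 and 39.7 CPM in those of Collagen I, 28.3 to 35.6 CPM in non-basal wells of BME and 26.3 and 28.3 CPM in those of Collagen I. Its log2 fold changes with Collagen I were 0.03 (SE 0.32, adjusted p = 0.959 by edgeR) and -0.21 (SE 0.26, adjusted p = 0.571 by edgeR). Hspa1a had a row only in BME plate 3 and Collagen I plate 3, with 2 counts in the kept wells of the former and 4 in those of the latter, and passed no filter on low counts. Dnajb1, the J-domain partner of HSP70, was at 118, 112 and 114 CPM in basal wells of BME and at 102 and 157 CPM in those of Collagen I, which overlap. In non-basal wells it was at 61.3, 56.0 and 60.5 CPM against 80.2 and 64.0 CPM, higher in both Collagen I plates but without passing the test (log2 fold change 0.32, SE 0.19, edgeR adjusted p = 0.229).

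**Figure D3:**
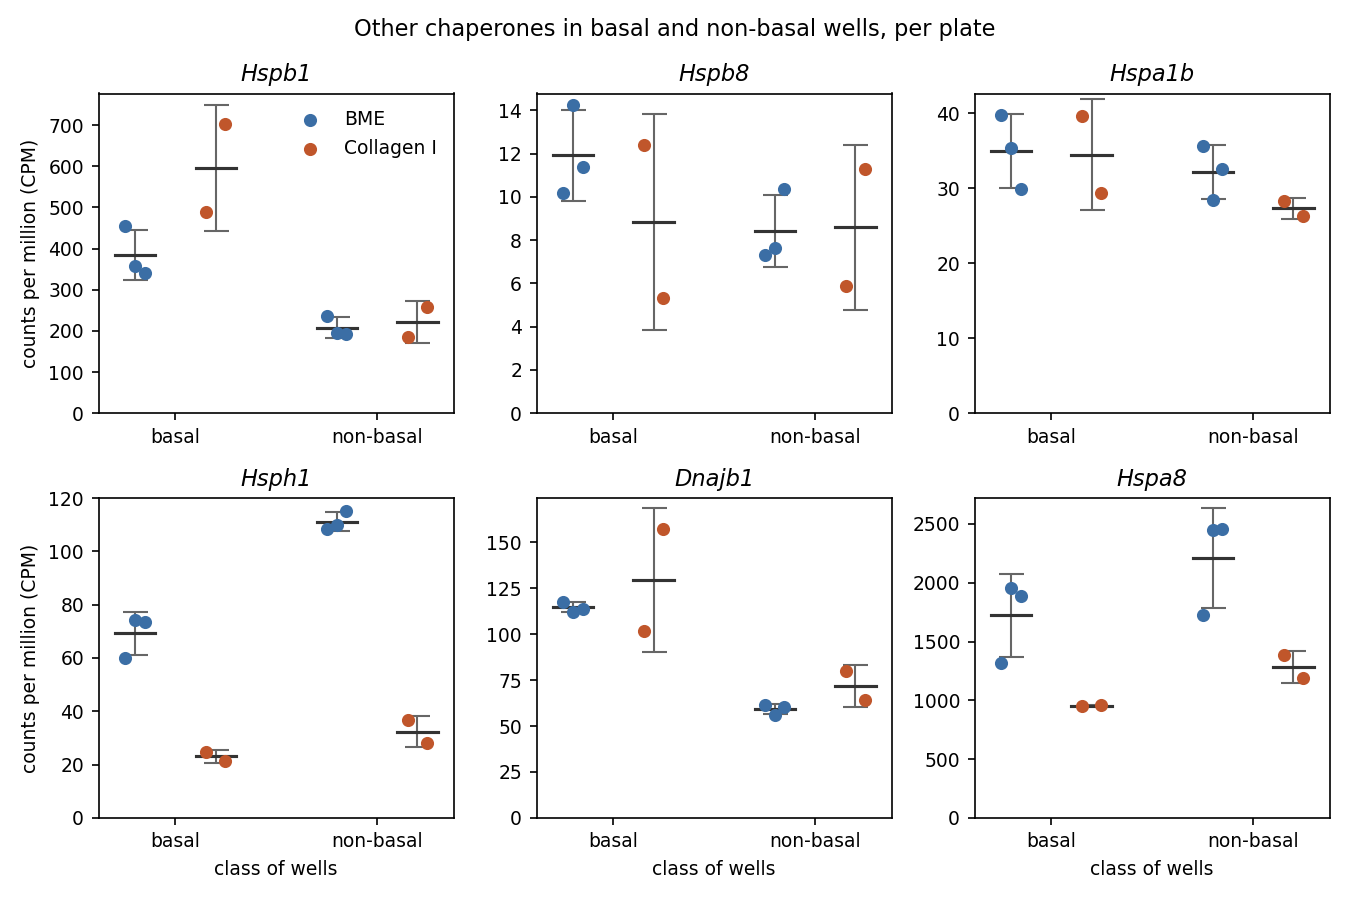
CPM of Hspb1, Hspb8, Hspa1b, Hsph1, Dnajb1 and Hspa8 (vertical axes, each from 0) in basal and non-basal wells, with 1 point per plate (blue BME, orange Collagen I), the mean as a line and the SD as bars. The Collagen I points of Hsph1 (21.3 to 36.5 CPM) and Hspa8 (949.9 to 1381 CPM) lie below the BME points of the same class, and Hspb1 and Dnajb1 stand higher in basal than in non-basal wells.

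Counted over the 7 genes tested by matrix, of which 6 passed the filter on low counts, 1 rose and 2 fell in basal wells, where 19.1% of the 10296 genes tested were called. In non-basal wells 2 fell and none rose, where 28.1% of 11046 genes were called, and over all wells together 2 fell (Hsph1 at -1.54 and Hspa8 at -0.75 on the log2 scale) where 31.8% of 11839 were called. For the difference between the classes 1 of 6 was called (Hspb1), where 4.26% of 10862 genes were. With so few members, nothing is read from the difference between these shares. The median log2 fold change of the 6 genes was -0.17 in basal and -0.14 in non-basal wells, and that of all genes -0.03 in each.

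The wells of the matrices also differed in ways that move with these genes, whose part in the results was not tested. In Collagen I 12.5% and 13.0% of the basal wells were cycling by the mitosis genes defined below, against 32.5% to 46.7% in BME. Of the non-basal wells 23.3% and 25% were cycling in Collagen I and 45.9% to 60.0% in BME. Immediate early genes are induced within minutes of stress or dissociation. They summed to 2459 and 3491 CPM in basal wells of the Collagen I plates and to 722 to 931 CPM in those of BME. In non-basal wells they summed to 1710 and 2610 CPM in Collagen I and to 437 to 611 CPM in BME. Rn45s, a ribosomal RNA row, took 64726 to 86862 CPM in the Collagen I sums of either class and 15944 to 31604 CPM in the BME sums. With ribosomal and mitochondrial genes left out, the log2 fold change of Clu was -2.68 in non-basal and -0.35 in basal wells, and that of Cryab -1.72 and 0.71. Within non-cycling wells only, Clu was at -2.95 and -0.56 and Cryab at -2.58 and 0.70, and the difference between the classes was 2.41 for Clu and 3.26 for Cryab. Thinning the wells had lowered the difference for Clu to 0.53 or 1.502, as given above.

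The comparison of basal with non-basal wells asked which chaperones go with the basal keratins within a plate. Dnajb1 was higher in basal wells of 5 of 5 plates, by 1.27 to 2.46 times. The log2 difference was 0.94 (SE 0.10, edgeR adjusted p = 4.06e-09) in BME and 0.73 (SE 0.22, edgeR adjusted p = 0.0355) in Collagen I, where it was lost in 8 of 18 alternatives, among them DESeq2 and the fit without Collagen I replicate 3. The BME call was lost only with wells thinned to 2000 counts before the classes were made. Hspa8 was lower in basal wells of all 5 plates, with log2 differences of -0.38 in BME (SE 0.06, edgeR adjusted p = 1.76e-05) and -0.49 in Collagen I (SE 0.09, edgeR adjusted p = 0.000502). The call in BME was lost among non-cycling wells and that in Collagen I without Collagen I replicate 1 and with wells thinned to 2000 counts (-0.29, edgeR adjusted p = 0.165). Hsph1 was lower in basal wells of all 5 plates too, with a log2 difference of -0.70 in BME (SE 0.10, edgeR adjusted p = 6.19e-07), and in Collagen I it was at -0.55 (SE 0.37, adjusted p = 0.476). The call of Hsph1 in BME was lost in both ways of thinning and among non-cycling wells. With Hspb1, this makes 2 genes higher and 2 lower of 6 in BME, where 35.3% of 10862 genes were called, and 2 higher and 1 lower in Collagen I, where 7.66% were.

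**Figure D4:**
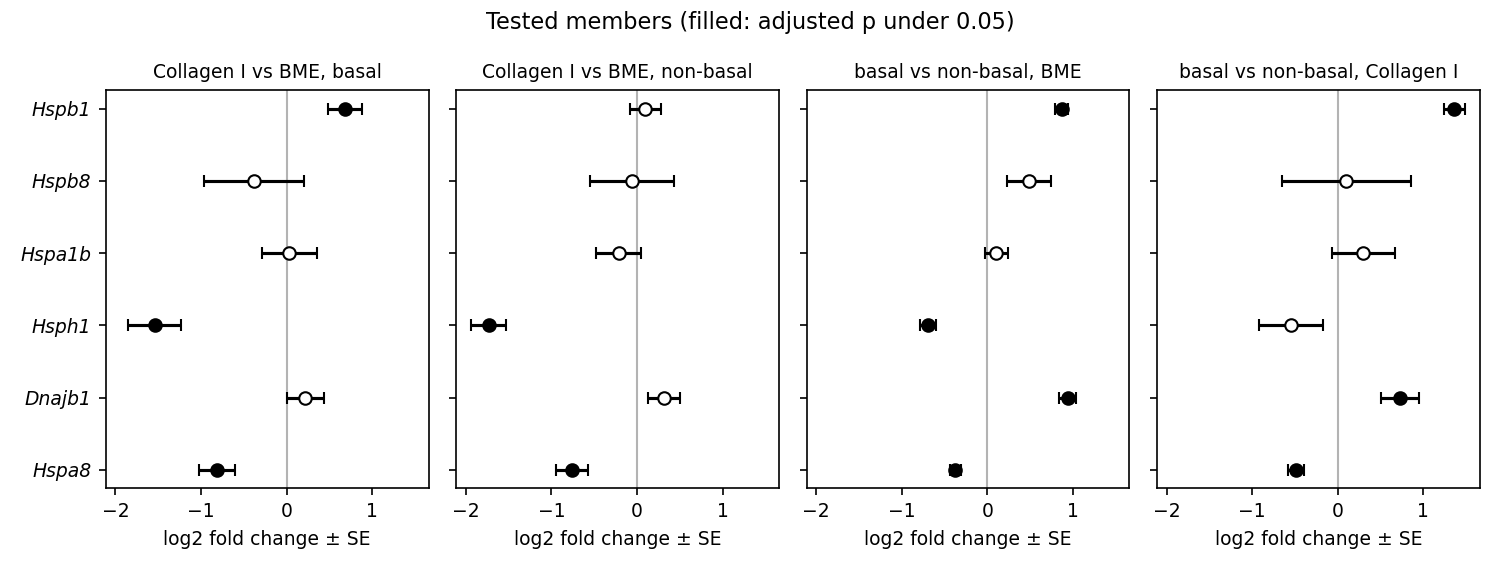
Log2 fold changes with their standard errors (horizontal axes) of the 6 tested genes in 4 comparisons: Collagen I against BME in basal and in non-basal wells, and basal against non-basal wells in BME and in Collagen I. Filled points passed an adjusted p of 0.05: Hspb1 lies at 0.68 in basal and at 0.10 in non-basal wells, and Hsph1 at -1.54 and -1.73.

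Cycling wells offered a comparison that the selection of Clu and Cryab did not use, so that both could be tested. Wells with at least 10 counts of 12 mitosis genes (such as Top2a, Mki67 and Cdk1) per 10000 were compared with wells under 5 in the same plate. Clu was at 458, 398, 325, 132 and 90.7 CPM in cycling wells of the BME plates 1 to 3 and the Collagen I plates 1 and 3, against 861, 439.7, 763, 169 and 116 CPM in non-cycling wells. It was lower in cycling wells of 5 of 5 plates (log2 difference -0.66, SE 0.13, edgeR adjusted p = 0.000397), and held in all 17 alternatives. All 7 basal markers were lower in cycling wells, and of the 7 luminal markers 2 were higher and 2 lower. Basal wells were cycling less often than non-basal wells in 4 of 5 plates, and the part of the classes in the cycling comparison was not tested. Hspb1 was lower in cycling wells of all 5 plates as well, at 200.3 to 240.1 CPM against 290.1 to 495 CPM (-0.69, SE 0.10, edgeR adjusted p = 2.26e-05). Cryab was at 57.2, 59.9, 68.9, 26.4 and 49.1 CPM in cycling wells, against 116, 102, 62.5, 58.7 and 67.0 CPM. It was lower in 4 of 5 plates, with BME plate 3 the exception (-0.54, SE 0.15, edgeR adjusted p = 0.00739). The call of Cryab was lost in 4 of 17 alternatives, with edgeR adjusted p of up to 0.286. These were both ways of thinning the wells to 2000 counts, the stricter cycling classes and the fit without BME replicate 1.

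Hsph1 and Hspa8 were higher in cycling wells of every plate. Hsph1 was at 113, 116, 125, 52.8 and 49.1 CPM in cycling wells, against 58.9, 68.8, 67.8, 31.3 and 20.8 CPM in non-cycling wells (log2 difference 0.91, SE 0.10, edgeR adjusted p = 5e-07), and the 5 plates did so by 1.68 to 2.36 times. Hspa8 was at 1803, 2471, 2552, 1400.3 and 1329 CPM, against 1318, 1829, 1808, 1221 and 1115 CPM (0.38, SE 0.07, edgeR adjusted p = 0.000451), a call lost only with the deepest 5% of wells left out. In either state the Collagen I plates stayed below the BME plates for Hsph1. Dnajb1 (-0.20, SE 0.13), Hspa1b (-0.23, SE 0.16) and Hspb8 (-0.34, SE 0.27) did not pass the test. In all, 2 of the 8 genes that passed the filter were higher and 3 lower, where 39.7% of 11106 genes were called. Cycling wells were deeper, with a median of 24897 to 31557 counts against 18631 to 24510 in the BME plates.

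Immediate early genes served as a second comparison of this kind. Their transcripts can mark handling stress of dissociated cells, and what raised them in these wells was not tested. In each plate, the wells with at least 2000 counts were ranked by the summed share of 11 of these genes (such as Fos, Jun and Egr1), and the highest 1 in 3 were compared with the lowest 1 in 3. Clu did not pass the test, at 553, 382, 497, 134 and 104 CPM in high wells against 591, 431, 368, 140.3 and 94.5 CPM in low wells (log2 difference -0.01, SE 0.09, edgeR adjusted p = 0.952, with a range of -0.16 to 0.33 over 17 alternatives). Cryab was higher in high wells of 4 of 5 plates, at 102, 99.2, 90.4, 77.0 and 50.3 CPM against 72.1, 47.3, 56.4, 29.2 and 59.9 CPM, and Collagen I plate 3 was the exception (0.67, SE 0.12, edgeR adjusted p = 0.000418). Hspb1 was at 405, 323, 269.9, 347 and 511 CPM in high wells and at 268, 221, 238, 214 and 325 CPM in low wells, and Dnajb1 at 95.2, 102, 86.1, 82.2 and 112 CPM against 61.8, 57.9, 68.5, 79.9 and 97.7 CPM. Both genes, Hspb1 (0.45, SE 0.08, edgeR adjusted p = 0.000587) and Dnajb1 (0.45, SE 0.11, edgeR adjusted p = 0.00409), were higher in high wells of all 5 plates, and for Dnajb1 the gap was small in Collagen I plate 1. Hsph1 was at 73.2, 71.7, 84.9, 41.1 and 19.3 CPM in high wells and at 108, 94.2, 119, 42.8 and 25.2 CPM in low wells. It was lower in high wells of all 5 plates (-0.52, SE 0.10, edgeR adjusted p = 0.000617) and Hspa8 in 4 of 5 (-0.24, SE 0.07, edgeR adjusted p = 0.015), and both were higher in cycling wells. The call of Dnajb1 was lost without BME replicate 1 and without BME replicate 2, and that of Hspa8 in 8 of 17 alternatives, among them DESeq2 and the fits without any single BME plate.

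These 3 higher and 2 lower genes of 8 stand beside 18.5% of 10741 genes called in the same comparison, with 939 genes higher and 1049 lower, or 1172 and 733 when only the library size was used for scaling. Wells low in immediate early genes were deeper, at a median of 27041 to 39245 counts in the BME plates against 17319 to 26524 in high wells. With wells thinned to 2000 counts none of the 5 calls remained, and with thinned wells that kept the class of the whole well only Hspb1 did (0.67, edgeR adjusted p = 0.0039). The fitted values in these 2 kinds of thinned wells were 0.49 and 0.79 for Cryab, 0.38 and 0.67 for Hspb1, -0.43 and 0.02 for Hsph1, -0.03 and 0.32 for Dnajb1, and -0.16 and -0.17 for Hspa8. Those of Cryab and Hspb1 were thus not far from the reported ones, and those of Hsph1 and Dnajb1 depended on the way of thinning. The inducible Hspa1b, which heat and proteotoxic stress raise strongly, did not pass the test with immediate early genes (0.18, SE 0.15, edgeR adjusted p = 0.459). All 12 mitosis genes were lower in the high wells, and all 7 basal markers were higher.

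**Figure D5:**
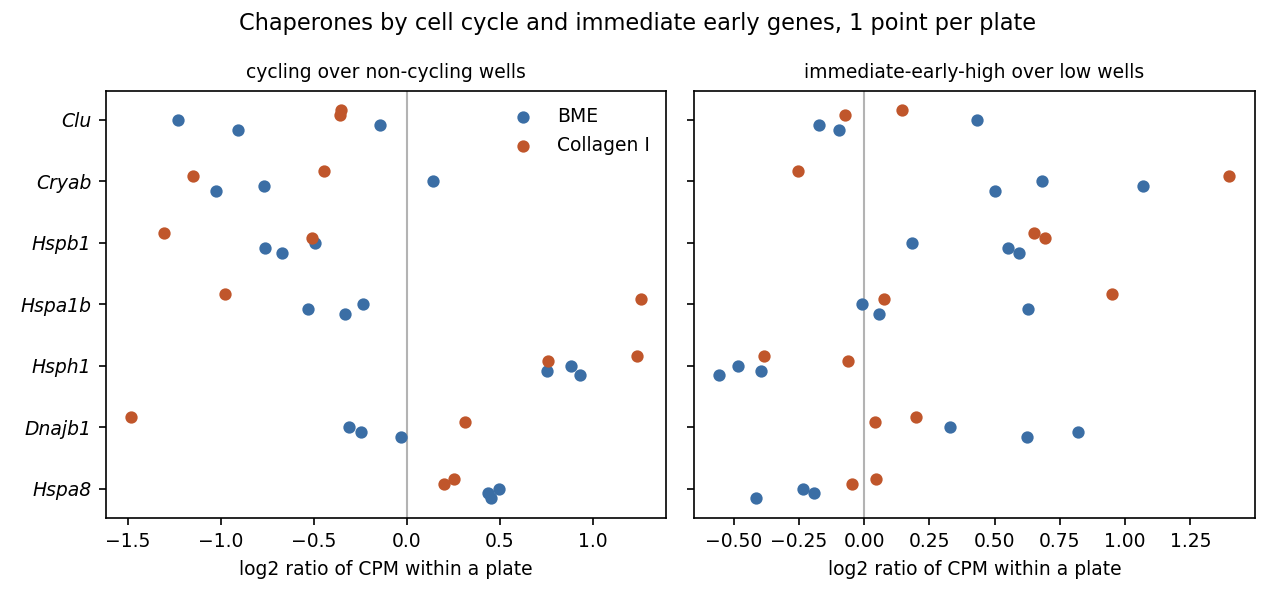
Log2 ratios within each plate (horizontal axes) of cycling over non-cycling wells and of wells high over wells low in immediate early genes, for 7 genes with 1 point per plate (blue BME, orange Collagen I). Hsph1 and Hspa8 lie above 0 in every plate by cell cycle, Clu and Hspb1 lie below 0, and by immediate early genes Clu scatters around 0 whereas Hspb1 and Dnajb1 lie above it.

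The rest of the chaperone network was read from 77 genes in 7 lists that hold none of the 9 genes above. Network genes fell more often than they rose with Collagen I: 17 fell and 3 rose of 67 tested in basal wells, and 29 fell and 3 rose of 68 in non-basal wells, with median log2 fold changes of -0.36 and -0.51 beside -0.03 over all genes. Of all genes tested, 19.1% were called in basal wells (1111 higher and 856 lower) and 28.1% in non-basal wells (1562 higher and 1541 lower). Among the chaperonins, which fold actin, tubulin and mitochondrial proteins in a closed chamber, 5 of 15 tested fell in basal wells and 8 of 15 in non-basal wells. Hspe1, the lid of the mitochondrial chaperonin, fell in both, with log2 fold changes of -1.18 (SE 0.19, edgeR adjusted p = 0.000137) in basal and -1.11 (SE 0.15, edgeR adjusted p = 6.66e-05) in non-basal wells. Hspd1, the chamber itself, was at -0.90 (SE 0.20) and -1.39 (SE 0.16), and Cct6a, a subunit of the cytosolic chaperonin, at -0.86 (SE 0.20) and -0.74 (SE 0.15), all past the threshold.

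Among the 14 tested genes for HSP90 and its co-chaperones, 6 fell and 1 rose in each class. Cacybp had log2 fold changes of -1.42 (SE 0.23, edgeR adjusted p = 8.29e-05) in basal and -1.62 (SE 0.18, edgeR adjusted p = 6.08e-06) in non-basal wells. Fkbp4 was at -0.85 (SE 0.20, edgeR adjusted p = 0.00372) in basal wells and Ppid at -1.69 (SE 0.25, edgeR adjusted p = 0.000132) in non-basal wells. The gene that rose was Fkbp5, an HSP90 co-chaperone known as a target of the glucocorticoid receptor, by 1.21 (SE 0.27, edgeR adjusted p = 0.0027) in basal and 1.47 (SE 0.18, edgeR adjusted p = 2.13e-05) in non-basal wells. Among 17 J-domain proteins 4 fell and 1 rose in basal wells and 6 fell and 1 rose in non-basal wells. Dnajc9, which binds histones and is known from S phase, fell in both classes, with log2 fold changes of -2.55 (SE 0.42) and -1.59 (SE 0.24), as did Dnajc2, a ribosome-bound co-chaperone, at -1.82 (SE 0.38) and -1.46 (SE 0.22). Dnaja2 was at -0.85 (SE 0.20) in basal wells and Dnaja1, a cytosolic HSP70 partner, at -1.14 (SE 0.16) in non-basal wells, both past the threshold.

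Among the other HSP70 and HSP110 genes 2 of 6 tested fell in basal wells and 4 of 6 in non-basal wells, Hspa14 with log2 fold changes of -1.42 (SE 0.35) and -1.14 (SE 0.23). In non-basal wells the mitochondrial HSP70 gene Hspa9 was at -1.02 (SE 0.16) and the HSP110 gene Hspa4 at -0.82 (SE 0.17). None of the 10 nucleotide exchange factors and co-chaperones of HSP70 passed edgeR's test in basal wells (2 at an unadjusted p under 0.05). For the difference between the classes edgeR called 0 of the 10 (1 at an unadjusted p under 0.05). In non-basal wells 4 fell and 1 rose. Stip1, which hands clients from HSP70 to HSP90, was at -0.82 (SE 0.16), Hspbp1 at -0.92 (SE 0.21) and Bag6 at 0.56 (SE 0.17). Hsf1, the main heat shock factor, was at -1.19 (SE 0.34, edgeR adjusted p = 0.0146) in non-basal wells, and of the 3 heat shock factors tested in basal wells none passed edgeR's test (1 at an unadjusted p under 0.05). None of the other small heat shock proteins passed edgeR's test, adjusted or not, with 2 tested in basal and 3 in non-basal wells.

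In cycling wells 38 network genes were higher and 6 lower of 69 tested, beside 39.7% of all genes called (2362 higher and 2044 lower), and the higher ones included 13 of 15 chaperonins and 10 of 14 genes of the HSP90 list. In wells high in immediate early genes 27 of 67 were lower and 2 higher, beside 18.5% of all genes called (939 higher and 1049 lower). Between basal and non-basal wells of BME 29 network genes of 67 were lower in basal wells and 7 higher, beside 35.3% of all genes called (1954 higher and 1879 lower). Hspd1 was lower there, at -0.98 (SE 0.08, edgeR adjusted p = 3.3e-12), as were Hsp90aa1, the inducible HSP90, at -0.66 (SE 0.07, edgeR adjusted p = 3e-09), Ppid at -0.80 (SE 0.09) and Cct3 at -0.57 (SE 0.08). Unc45a, a myosin chaperone, was higher in basal wells, at 1.15 (SE 0.14, edgeR adjusted p = 9.61e-08). In Collagen I 6 genes were lower and 1 higher of 67, a share near the 7.66% called over all genes, with Hspe1 at -0.52 (SE 0.14), Cct6a at -0.61 (SE 0.18) and Hsp90ab1, the constitutive HSP90, at -0.29 (SE 0.09, edgeR adjusted p = 0.0352). When the effects of Collagen I in the classes were set against each other, 1 of 67 network genes was called, beside 4.26% of all genes.

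The genes whose level followed Clu most closely over the 10 sums of plate and class, among 3333 genes with a mean of at least 50 CPM, were Ehf (Pearson's r of log2 CPM = 0.985), Sec11c (0.965), Ccng1 (0.959), Kpnb1 (0.948) and Prdx3 (0.947). Ehf, an epithelial transcription factor of the ETS family, averaged 131 CPM in non-basal wells of BME and 42.4 to 55.7 CPM in the other 3 groups. Ccng1, a target of p53, averaged 189 CPM there and 61.6 to 88.8 CPM elsewhere. The closest to Cryab were Tmem167 (0.915), Klhl21 (0.914), Cfl2 (0.904), Eif6 (0.891) and Rap1b (0.884). Cfl2, a cofilin that severs actin filaments, averaged 86.3 CPM in basal and 83.4 CPM in non-basal wells of BME, and 99.1 and 71.7 CPM in those of Collagen I. The 10 sums share plates and library depth by pairs, and they hold the values on which Clu and Cryab were chosen. The correlations were not tested and describe likeness in these plates only.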

How the data were processed

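MMTV-PyMT organoid cells were profiled by SORT-seq on day 5, on plates of 384 wells, 3 for BME and 2 for Collagen I. Collagen I replicate 2 was not analysed here. The authors deposited expected counts, that is, for each well and gene the distinct UMIs corrected for saturation, without normalization. UMIs of 6 bases give back 99.0% to 99.9% of the values and UMIs of 4 bases, as in the labels, 56.0% to 83.7%, within a tolerance of 0.011. The submitters' processing notes name BWA and mm10, and the version of BWA is not given in the sources used here. Total counts per plate were 9077590 to 10911740 in BME and 1091410 to 1631981 in Collagen I, so that values of rare genes in Collagen I are imprecise. Spike-ins were left out.

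Wells were filtered on counts, genes and the share of rows whose symbol starts with mt-. They were put into classes by keratins and summed per plate and class, since cells are not replicates. Sums were rounded and compared with edgeR 4.0.16 (TMM, filterByExpr, quasi-likelihood test, Benjamini-Hochberg adjustment over all genes tested, calls at an adjusted p under 0.05), with the plate as a block wherever classes of the same plates were compared. Standard errors were taken as the absolute log2 fold change over the root of the F statistic. CPM are counts per 1000000 counts of a sum. The fits were run on simulated data with known changes. These counts were drawn from the fitted model, so that they cannot show whether the plates are separate replicates. The members, gene lists and class limits were chosen with earlier results of these data known. From the network lists, up to 3 genes per list and comparison were named, with the smallest adjusted p among genes called at 50 CPM or more in a group. Pearson's r used log2(CPM + 1). Alternatives were DESeq2 1.42.0, RLE or no scaling factors, no low count filter, each plate left out, wells over 2000 counts or thinned to 2000, no mitochondrial limit, ribosomal and mitochondrial genes left out, the top 5% of wells left out, the correction undone, stricter classes of each kind, the outer 1 in 4 in place of 1 in 3 wells, non-cycling wells only and the replicate block. Thinned wells with classes from the whole well were added after seeing the data. No doublet caller was run.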

Additional observations from a re-analysis of the deposited data

Results flagged for a closer look

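The difference in the effect of Collagen I on Hspb1 between basal and non-basal wells passed the test narrowly, and not in every alternative. Its log2 fold change was higher by 0.50 in basal wells (SE 0.14, edgeR adjusted p = 0.0444), from 0.68 in basal to 0.10 in non-basal wells. All 5 plates had more Hspb1 in basal wells, which holds within both matrices and does not bear on this difference. The adjusted p ranged from 0.0116 to 0.98 over 18 alternatives, and the value from -0.08 to 0.62. Groups held 3 and 2 plates, so that no test for single outlying plates was made.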

How the results depend on the processing

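Across 21 settings, 115 of 144 counts of called members stayed within 1.5 times of the reported count, and 1039 of 1125 values of single members kept their side of the threshold or, untested, moved by under 1 SD. With wells thinned to 2000 counts, edgeR called 1 member by matrix in all wells, 1 in basal and 1 in non-basal wells, 0 for the difference between classes, 2 and 1 between classes in BME and Collagen I, and 0 by immediate early genes, and Hsph1 between classes of BME (0.0404) and Dnajb1 by immediate early genes (-0.0317) changed sign. With classes from the whole wells the counts were 1 in all wells, 1 in non-basal wells, 0 for the difference and 1 by immediate early genes, and Hspb1 in the difference (-0.0757) and Hsph1 by immediate early genes (0.0159) changed sign. Thinning leaves few counts of any gene, and where the classes were made after it, a single keratin count made a well basal. Among non-cycling wells 1, 0 and 1 members were called by matrix in all, basal and non-basal wells, 0 for the difference and 2 between classes of BME. The difference also gave 0 with over 2000 counts per well, with no mitochondrial limit and with the deepest 5% of wells left out, where the cause was not tested. Leaving out each plate gave 1 to 3 members in all wells, 1 to 3 in basal, 1 to 2 in non-basal, 0 to 1 for the difference, 2 to 4 between classes, 4 to 6 by cell cycle and 3 to 5 by immediate early genes. Over all genes, the calls ranged from 1777 to 4569 in all wells (3765 reported), 707 to 2266 in basal (1967), 1110 to 3690 in non-basal wells (3103), 61 to 529 for the difference (463), 414 to 4013 and 275 to 967 between classes in BME (3833) and Collagen I (832), 760 to 4499 by cell cycle (4406) and 95 to 2034 by immediate early genes (1988). The lowest was in each case with thinned wells, except between classes of Collagen I, where it was without Collagen I replicate 1. The fitted value of Clu in basal wells ranged from -1.61 to 0.00 and in non-basal wells from -2.95 to -2.11, and that of Cryab from 0.51 to 1.00 and from -2.58 to -1.47. Same-numbered plates did not deviate together (correlations -0.0084 and 0.0107), and with the replicate block the counts stayed at 2, 3 and 2 members in all, basal and non-basal wells. Depth limits values under about 10 counts in Collagen I.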
